A study of Drosophila melanogaster with 2 samples.

Results

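The 10 pair-rule genes of Drosophila melanogaster were examined for peaks of the terminal transcription factor Huckebein. They are even-skipped (eve), fushi tarazu (ftz), hairy (hry), runt (run), odd-skipped (odd), paired (prd), sloppy paired 1 and 2 (slp1 and slp2), odd-paired (opa) and ftz-f1, taken by name from 13945 protein-coding genes. All 10 names were found in the annotation. Sequencing after chromatin immunoprecipitation (ChIP-seq) was done on whole embryos of the strain hkb-GFP, aged 0 to 24 h, in which Huckebein carries a fused green fluorescent protein (eGFP), and an anti-GFP antibody was used. The 2 biological replicates form a single group, with no other genotype, treatment or stage to compare. The flies are transgenic for the fusion, and the number of embryos per replicate was not stated. A gene counted as having a peak when a peak summit lay in the gene or up to 5 kb from either end.

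Pair-rule genes encode transcription factors that divide the early embryo into segments. Most of them are transcribed in stripes spaced by a pair of segments, under the control of maternal and gap factors through stripe enhancers that lie up to many kilobases from the gene. They then act on one another and on the segment polarity genes, which hold the segment borders. Huckebein is a zinc finger factor made at the head and tail ends of the blastoderm downstream of the Torso receptor, where it is known mainly as a repressor. Whole embryos pool all cells and a full day of development, so the peaks are an average over tissues and hours in which the stripes are a brief phase, and no cell type was separated.

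The sites that the results turn on are printed first, from the RefSeq Release 6 assembly on the plus strand and counted from 1. They are the strongest summit at any pair-rule gene, the promoter summits of hry and opa, and the strongest pair of summits inside ftz-f1. Capitals mark the Motif 1 core GGTCACACT at the slp2 site and the GAGA element GAGAG at opa. The stretches are chr2L:3832466-3832566 (slp2), chr3L:8675658-8675758 (hry, ending on the base before the start), chr3R:4852427-4852527 (opa), and chr3L:18769510-18769610 and chr3L:18784704-18784804 (ftz-f1).
slp2 upstream: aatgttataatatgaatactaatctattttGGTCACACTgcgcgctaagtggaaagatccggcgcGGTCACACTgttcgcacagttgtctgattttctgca
hry promoter: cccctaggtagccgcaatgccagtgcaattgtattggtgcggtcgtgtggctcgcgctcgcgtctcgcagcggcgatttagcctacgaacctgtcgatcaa
opa promoter: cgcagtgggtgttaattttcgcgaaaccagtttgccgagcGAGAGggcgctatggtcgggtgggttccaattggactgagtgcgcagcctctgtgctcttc
ftz-f1 intron, upstream of the near starts: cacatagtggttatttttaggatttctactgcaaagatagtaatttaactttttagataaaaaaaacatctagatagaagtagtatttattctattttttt
ftz-f1 intron, middle: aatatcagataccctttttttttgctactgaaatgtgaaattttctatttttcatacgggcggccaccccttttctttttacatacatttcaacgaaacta

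The peak lists set the scale of what follows. The list that combines both replicates held 7220 thresholded peaks, replicate 1 alone 5260 and replicate 2 alone 4347. Below them lie ranked lists of all candidate peaks, 94831 combined, 87098 in replicate 1 and 76346 in replicate 2, from which the thresholded peaks had been taken at an irreproducible discovery rate (IDR) of at most 0.01. Peaks carry a signal value, a score made by the authors that served here to describe and rank them within their own list. Read depth is unknown, so differences in signal value between the replicates' lists cannot be told apart from depth, and without a control, which was not used here, binding of the tagged protein and other sources of a peak cannot be told apart.

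Of the pair-rule genes, 7 of 10 had a summit in the combined list (70.0%, 95% exact binomial interval 34.8 to 93.3, counting error only). Among all protein-coding genes 57.1% did with the same window, a share within that interval. The 7 were ftz, hry, odd, slp1, slp2, opa and ftz-f1. No summit fell at eve, run or prd. A second combined list, called conservative, held 6 of the 10, without odd, against 56.5% of protein-coding genes. Replicate 1's own list held 6 of the 10, against 48.7% of protein-coding genes. Replicate 2's own list held 4 of the 10, hry, slp2, opa and ftz-f1, against 44.3%. Thus hry, slp2, opa and ftz-f1 had a summit in all 4 lists, odd and slp1 in the combined list and replicate 1, and ftz in neither replicate's own list.

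The count depended on the window. With the gene body and 1 kb upstream, 3 of 10 pair-rule genes kept a summit (hry, opa and ftz-f1), against 31.7% of protein-coding genes. With 2 kb either side 5 of 10 did, against 42.4%, and with 10 kb either side 8 of 10 did, against 70.8%. In total 26 summits lay at the pair-rule genes, 136.6 per Mb of their windows against 53.9 per Mb of the genome. Of these, 16 were at ftz-f1. The other 9 genes together held 10, or 77.2 per Mb. The genome value also covers sequence outside gene windows, so these densities are not compared like for like. With the same window, the median was 1.0 summit per pair-rule gene and 1.0 per protein-coding gene.

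The best candidate of each gene, whether or not it passed the threshold, gave an order of the 10. In the combined list it ran from 31.4 at eve through 40.0 at prd, 50.03 at run and 63.7 at odd to 87.3 at ftz, 94.7 at slp1 and 99.7 at opa. Above these stood hry with 141.6, ftz-f1 with 253.3 and slp2 with 600.0. Gene length was not adjusted for, and ftz-f1 had 87 candidates in a window of 60.7 kb, against 2 in 11.9 kb at ftz. The order of the 10 holds for 5 kb either side and moved with the window. With 2 kb, slp2 had 85.7, run 22.9 and eve 19.0, each more than 1.5 times lower, and ftz had no candidate. With 10 kb, slp1 had 600.0, odd 138.9, prd 62.4 and eve 55.8, while hry and ftz-f1 had the same values under all 3 windows. The member median was 91.0, against 85.9 over protein-coding genes with those lacking a candidate counted lowest, so as a set the pair-rule genes sat near the middle of the genome. In replicate 1 the medians were 52.5 for the pair-rule genes and 49.4 for protein-coding genes, and in replicate 2 they were 38.2 and 39.9. In each replicate slp2, ftz-f1 and hry were the 3 highest, in that order, and eve, run and prd the 3 lowest. Eve was lowest in both, while run was below prd in replicate 1 and above it in replicate 2. The genes between them had signal values of 44.7 to 55.4 in replicate 1 and 34.1 to 39.9 in replicate 2, and their order differed between the replicates.

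**Figure D1:**
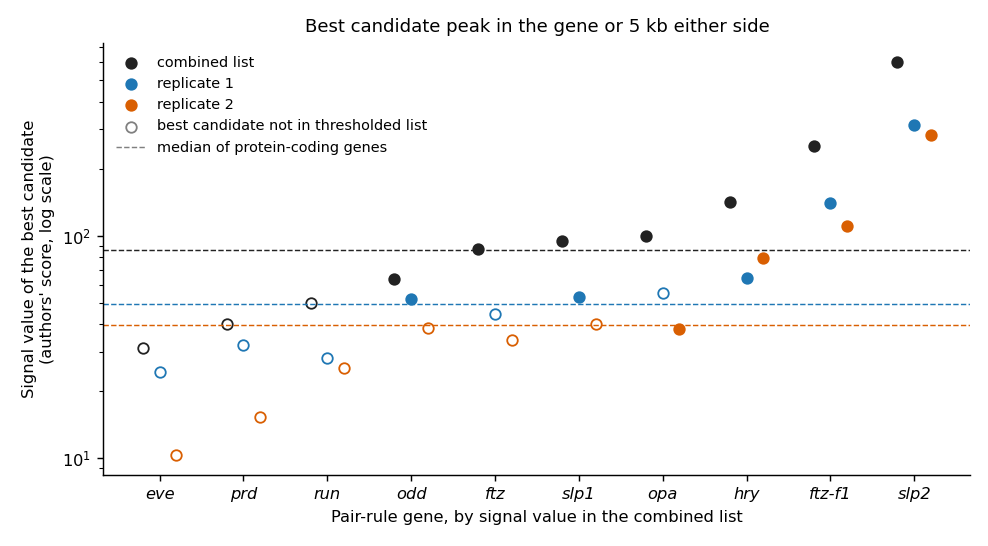
Signal value (authors' score, log scale) of the highest candidate peak at each pair-rule gene in the combined list and in each replicate, 1 point per gene and list. Filled points are in the thresholded list and open points are not, and dashed lines are medians over protein-coding genes. slp2 reaches 600.0 in the combined list, and eve, run and prd are open in all 3 lists.

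The forkhead factor genes slp1 and slp2 are adjacent duplicates on 2L, transcribed in the same direction, that act late in the pair-rule network and help to place wingless stripes. Between them lay the strongest summit at any pair-rule gene, at chr2L:3832388-3832649. Combined, it had a signal value of 600.0 and rank 191 of 7220. In replicate 1 it had 312.5 and rank 220 of 5260, and in replicate 2 it had 283.9 and rank 170 of 4347. The summits of the replicates lay 9 bp apart. Both replicates thus held this site, within the upper ranks of their lists, at 2.37 times the next highest summit of the 26 in the combined list. The summit lay 4324 bp before the slp2 start and 5417 bp past the slp1 end, in intergenic sequence, and the slp2 start was the nearest annotated start of any gene. Only the slp2 window includes it at 5 kb. The percentile of slp1 among protein-coding genes therefore moved to 93.8% with 10 kb either side, against 53.7% with 5 kb, because that window takes in the same site.

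The sequence of this site, printed above, holds GGTCACACT at 2 places on the same strand, 35 bp apart, 1 on each side of the summit. These letters are the core of Motif 1, a promoter element of Drosophila bound by the zinc finger protein M1BP. They were searched after the sequence had been seen, so their presence at this site is a description and no test. Of all 7220 summits 0.526% hold the core within 50 bp on either strand, and this was the 1 summit of the 7220 with 2 copies. Among the 200 summits of highest signal value this site was the 1 with any copy, a share near the 0.526% of all summits. No annotated start lies near it, whereas 4.39% of all annotated promoters (250 bp before to 50 bp after a start) hold the core and none of the 15 starts of pair-rule genes does.

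The other summits at the sloppy paired genes were weaker. A site 744 bp past the slp1 end, at chr2L:3827651-3828034, had 94.7 combined, 52.8 in replicate 1 and 39.9 in replicate 2. In replicate 2 it missed the threshold with a −log10 IDR of 1.87. A second listed summit 200 bp from it had a signal value of 4.04 and a −log10 IDR of 2.81, like that of its neighbour, and no candidate of its own within 100 bp in either replicate. A site 1971 bp past the slp2 end, at chr2L:3840964-3841347, had 85.7 combined, 51.7 in replicate 1 and 39.2 in replicate 2. These sites behind each gene passed in replicate 1's list and not in replicate 2's. The starts themselves carried candidates that missed the threshold of 2, with 62.5 at slp1 (−log10 IDR 1.87) and 46.0 at slp2 (1.51) in the combined ranked list.

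Hairy is a basic helix-loop-helix repressor that works with the corepressor Groucho and is among the first pair-rule genes to form stripes. It had 3 summits in the combined list. The strongest lay 20 bp upstream of the start, at chr3L:8675547-8675930, with signal values of 141.6 combined, 64.7 in replicate 1 and 79.1 in replicate 2. A site 2971 bp upstream had 110.4 combined, 61.6 in replicate 1 and 52.0 in replicate 2. Both sites were in both replicates' lists, with summits at most 21 bp from the combined one. The promoter site was higher in replicate 2, unlike most summits at pair-rule genes, and hry and slp2 were the only genes besides ftz-f1 with a best candidate that passed the threshold in all 3 lists. A site 4692 bp past the gene end had 83.6 combined, and its candidates of 41.4 in replicate 1 and 41.7 in replicate 2 passed in neither.

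Odd-paired, a zinc finger factor of the Zic family that is expressed in a broad domain rather than in stripes and times the change of the network to single-segment periodicity, had 1 summit. It lay 336 bp upstream of the start, at chr3R:4852285-4852668, with 99.7 combined, 55.4 in replicate 1 and 37.9 in replicate 2. The replicate 2 candidate passed the threshold. The replicate 1 candidate missed it with a −log10 IDR of 1.77, and replicate 1's list instead held an entry of 18.7 at 106 bp upstream of the start. The promoter of opa was thus represented in both lists, but by different entries. No summit lay in the rest of the 17.167 kb gene.

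Odd-skipped, a zinc finger repressor, had 1 combined summit, 3167 bp past the gene end at chr2L:3600865-3601248, with a signal value of 63.7 and rank 6499 of 7220. Its candidates were 31.1 in replicate 1 and 38.5 in replicate 2, and neither passed. Replicate 1's list held another site instead, 199 bp inside the gene from its start, with 52.2. At that site the combined candidate had 63.2 and a −log10 IDR of 1.48, and the replicate 2 candidate nearest the start had 17.0. The combined list and the single list that named odd therefore did so for sites 5500 bp apart.

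The homeodomain gene ftz, after which its partner ftz-f1 is named, had 1 summit, 3217 bp past its end at chr3R:6869269-6869652. The signal value was 87.3 in the combined list, rank 4786 of 7220. The candidates were 44.7 in replicate 1 and 34.1 in replicate 2, with −log10 IDR values of 1.83 and 0.863, so neither replicate's list held the site. No candidate lay nearer to the ftz start than this summit, 5137 bp away, in any of the 4 ranked lists. The ftz start sits in a stretch of 23.7 kb with no candidate in any of them, from 18.6 kb upstream to 5.14 kb downstream of it. Soft-masked repeat sequence made up 15.6% of that stretch, against 20.1% of the genome. Stretches of at least this length numbered 469 and covered 27.7% of the genome.

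Even-skipped encodes a homeodomain repressor whose separate stripe enhancers are a textbook case of transcriptional control. It had the lowest best candidate of the 10, with 31.4 combined, at 3340 bp upstream of the start. The best candidates of the replicates were at other sites, 24.3 at 468 bp upstream in replicate 1 and 10.3 at 693 bp upstream in replicate 2. Of protein-coding genes 18.7% had a lower best candidate or none in the combined list. The best sites of the replicates lay 225 bp apart and none came near the threshold, with a −log10 IDR of 0.244 for the combined candidate. The nearest combined summit to the eve start was 19.4 kb upstream. It had a signal value of 871.8, rank 82 of 7220, and lay 173 bp upstream of the start of another gene, Pal1.

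Runt, which belongs to the Runx family of DNA-binding proteins, had a best candidate about 2.83 kb upstream of its first start, with 50.03 in the combined list, 28.1 for replicate 1 and 25.5 for replicate 2. The replicates placed it 31 bp apart, yet the −log10 IDR was 0.687 in the combined list. In the ranked list behind the conservative peaks the same candidate reached 1.54, still under 2. The nearest combined summit was 35.5 kb upstream, with 257.3, and the nearest start to it was that of Cyp6v1. The 3′ end of run, which ends 6.65 kb after the first start, and the sequence behind it had no candidate in any list. This stretch of 11.1 kb ran from 5.43 to 16.5 kb after the first start. Stretches of at least this length numbered 1153 and covered 36.1% of the genome.

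Paired, which carries both a paired domain and a homeodomain, had a best candidate of 40.0 combined, 32.4 for replicate 1 and 15.4 for replicate 2. The best sites of the replicates lay 7515 bp apart, so they were not the same site. The nearest combined summit was 7907 bp upstream of the prd start, with a signal value of 62.4, at 28 bp before the start of Pex19. Thus eve, run and prd lacked a summit in each of the 4 thresholded lists, and the closest ones lay nearer to other genes.

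**Figure D2:**
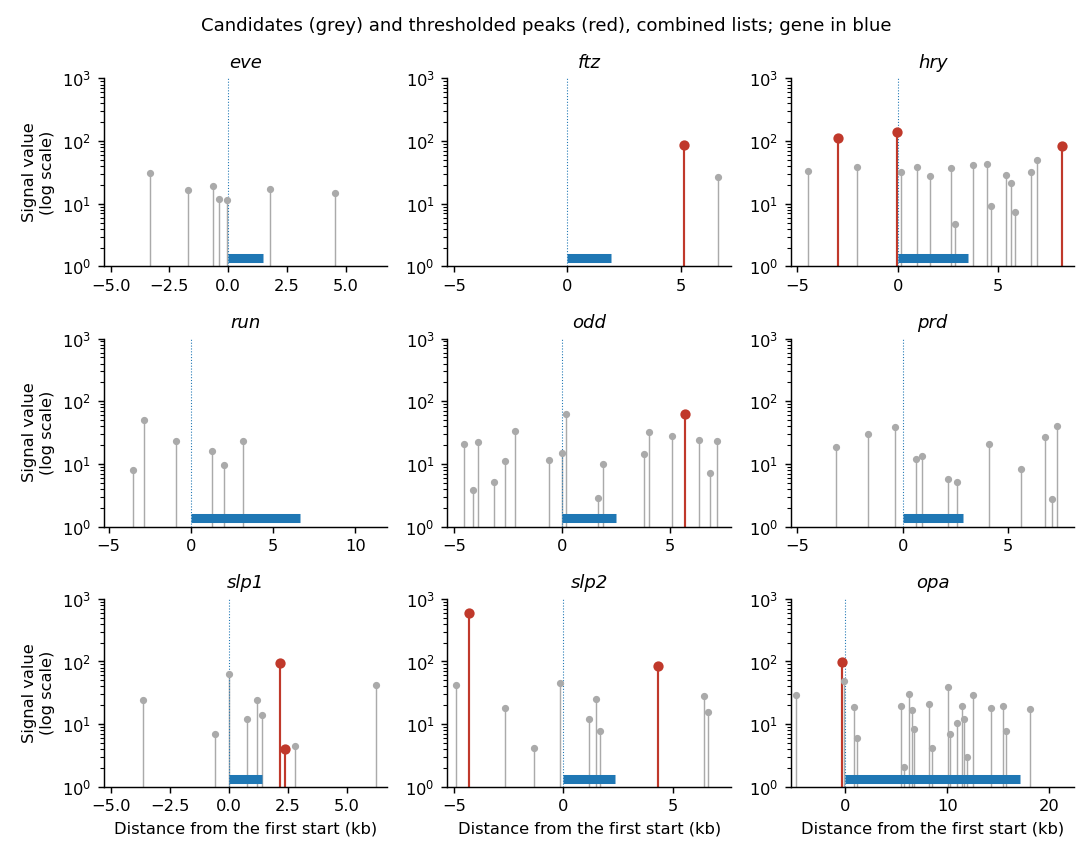
Candidates of the combined ranked list at the 9 pair-rule genes other than ftz-f1, by distance from the first annotated start along the gene's strand (kb) and by signal value (authors' score, log scale). Red points are thresholded summits, grey points are candidates that did not pass, and the blue bar is the gene. The red point at 600.0 stands upstream of slp2, ftz has no candidate around its start, and eve, run and prd have no red point.

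The nuclear receptor Ftz-F1 is a partner of Ftz in activating segmentation genes, supplied to the egg by the mother and evenly distributed rather than striped, and a second form is made later in development. Its gene covers 50.703 kb of 3L, longer than 97.8% of protein-coding genes, and has 3 annotated starts. It held 16 combined summits, 13 in replicate 1 and 9 in replicate 2. In the combined list, an entry of 29.7 lay 200 bp from another of 58.5, with a like −log10 IDR (2.09 at both). Replicate 1's list had such a pair too, an entry of 10.03 at 206 bp from that of 97.3. These counts are therefore of listed entries, which can outnumber separate sites. Only 7 protein-coding genes had 16 or more in the combined list, and 0.402% had 10 or more. Per length the ftz-f1 window held 264 summits per Mb, against 53.9 per Mb of the genome. Candidates of all ranks were also dense there, 1433 per Mb against 707 per Mb of the genome. The window overlaps 5 other protein-coding genes, CG6885, MED11, Nufip, Atg3 and CG14073, and the non-coding genes lncRNA:CR45938 and lncRNA:CR45939.

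Of the 16 summits, 1 lay upstream of the far start, 10 in the 35.565 kb between the far start and the near pair, and 5 in the 14.349 kb from there to the gene end. By annotation 13 were intronic, 1 was in a 5′ untranslated region and 2 were within 500 bp of a start, in both cases with the start of a non-coding gene as the nearest. The strongest, at chr3L:18769533-18769666, was intronic, 3816 bp upstream of a near start. It had 253.3 combined, 137.2 in replicate 1 and 110.8 in replicate 2. The second, at chr3L:18784676-18784853, was 16555 bp inside the gene from the far start, with 240.2 combined, 140.0 in replicate 1 and 102.2 in replicate 2. The third, at chr3L:18756421-18756804, had 172.2 combined, 97.3 in replicate 1 and 69.7 in replicate 2, and the fourth, at chr3L:18786199-18786314, had 169.5, 94.8 and 76.0 in the same order. These 4 sites were in both replicates' lists, and the 2 strongest changed places between the replicates. The 3 that were narrower than the usual 384 bp were among the 4.

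Between 19.8 and 29.0 kb after the far start, ftz-f1 had no candidate in any of the 4 ranked lists. Soft-masked repeats make up 94.7% of this stretch of 9.21 kb, against 20.1% of the genome. Stretches without a candidate of at least this length numbered 1277 and covered 37.0% of the genome. The near starts had candidates under the threshold in the combined list, the highest with 63.0 at 69 bp after a near start and a −log10 IDR of 1.41. That site passed in replicate 2 (34.8) and in the conservative list (63.0). The far start had a summit 196 bp upstream with 65.6 in the combined list that passed in neither replicate and not in the conservative list.

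**Figure D3:**
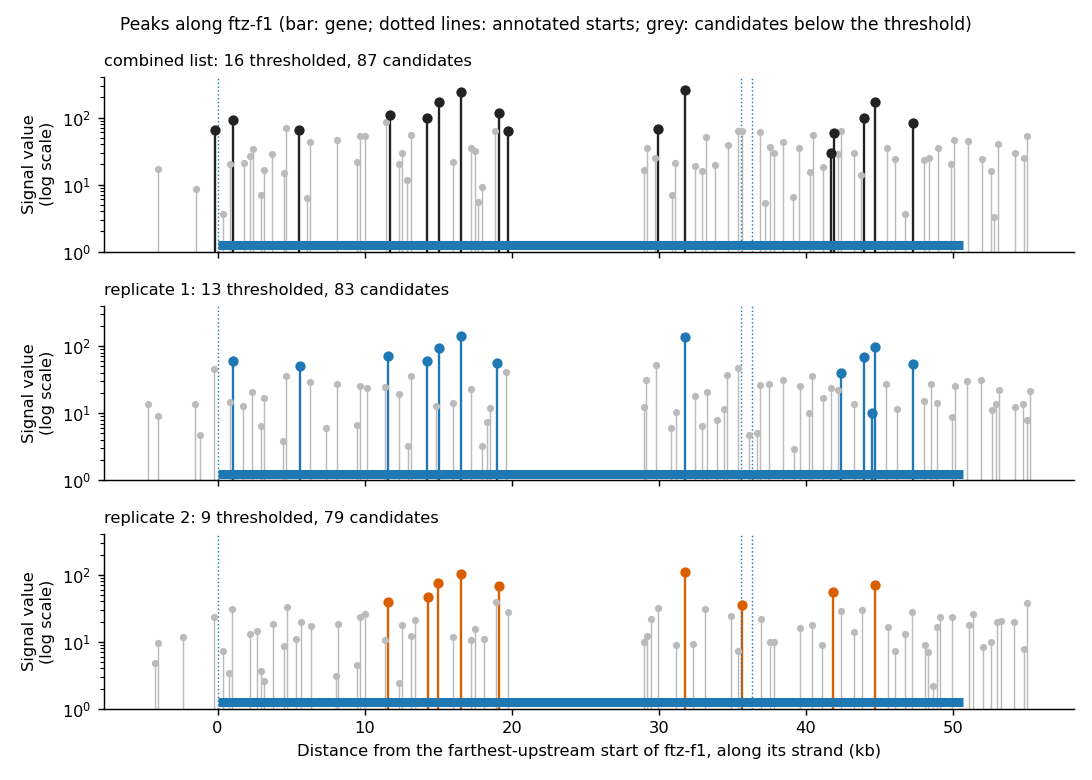
Peaks along ftz-f1 for the combined list and each replicate's own, by distance from the farthest-upstream start along the gene's strand (kb) and by signal value (authors' score, log scale). Coloured points are thresholded summits (16, 13 and 9), grey points are candidates that did not pass, the bar is the gene and dotted lines are annotated starts. The strongest sites recur in the 3 panels, and no candidate falls between 19.8 and 29.0 kb.

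The places of the 26 summits are given beside those of the whole list, but 16 of the 26 were at ftz-f1. The windows of the other pair-rule genes overlapped no other protein-coding gene, so they hold few starts. The effect of this on the shares was not tested. Promoters, within 500 bp of any annotated start, held 4 of 26 (15.4%), against 46.7% of all 7220 summits. Introns held 13 of 26, all of them at ftz-f1, against 37.3% of all. Intergenic sequence held 8 (30.8%), against 12.6% of all, and these were 8 of the 10 summits at genes other than ftz-f1. The median distance from a pair-rule gene's nearest start to the nearest combined summit was 4726.5 bp, against 4817 bp over protein-coding genes. It was at most 500 bp for 3 of 10, hry, ftz-f1 and opa, against 24.3% of protein-coding genes. The median signal value of the 26 was 92.6, against 106.6 for the whole list, and 9 of the 26 were above that list's median. The GC content within 50 bp of the summit had a median of 34.2%, against 34.7% for the list, and ranged from 20.8% behind slp1 to 60.4% at the hry promoter.

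Peaks of both replicates' own lists overlapped the peak intervals of 11 of the 26 summits (42.3%), against 47.9% of the whole list. Any shared base counted as an overlap, so the summits themselves could differ, as at opa. A peak of replicate 1 alone overlapped 7, of replicate 2 alone 2, and of neither 6 (23.1%, against 22.2% of the whole list). The 6 were the summit at ftz, the one at odd, the one behind hry and 3 at ftz-f1. In 21 of the 26, each replicate's ranked list had a candidate within 100 bp of the summit, also where it did not pass. The signal value was higher in replicate 1 for 17 of the 21, with a median ratio of replicate 1 to replicate 2 of 1.32 and a range of 0.807 to 2.58. Of replicate 1 candidates at the pair-rule genes, 51.4% had a replicate 2 candidate within 100 bp, against 42.7% of all replicate 1 candidates. Replicate 2 candidates were also denser at these genes, 867 per Mb against 570 per Mb of the genome, and the effect of density was not tested. For thresholded summits the shares at these genes were lower than those of the whole lists, but they rest on few entries. In replicate 1, 17 of 20 (85.0%) had a replicate 2 candidate within 100 bp, against 90.6% of its whole list. In replicate 2, 11 of 14 (78.6%) had a replicate 1 candidate within 100 bp, against 92.3%. Of these entries, 13 of the 20 and 9 of the 14 were at ftz-f1. The shares were also lower with 50 bp (10 of 20 and 9 of 14) and, by less, with 200 bp (19 of 20 and 13 of 14). With so few entries, no conclusion about agreement between the replicates at these genes is drawn. The best sites of the replicates coincided within 100 bp at 6 of 10 genes (ftz, hry, run, slp1, slp2 and opa). At ftz-f1 they lay 15204 bp apart where the strongest pair of sites had similar signal values.

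**Figure D4:**
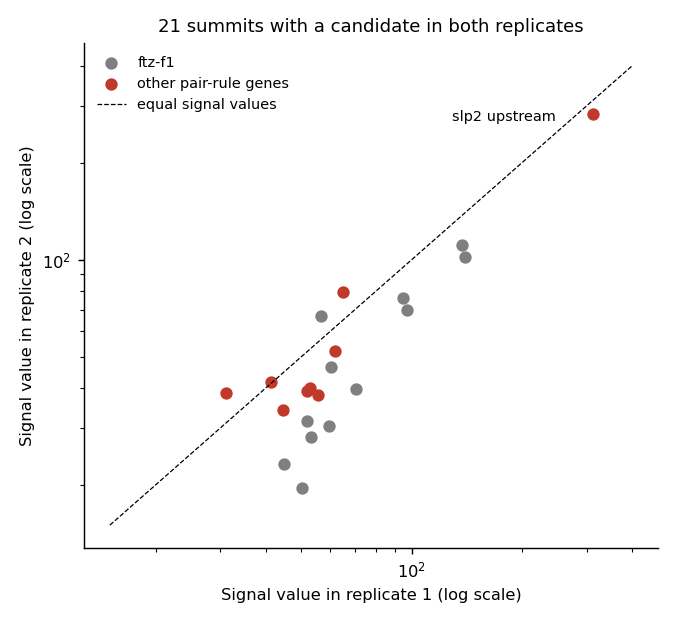
Signal value of the highest candidate within 100 bp in replicate 1 (x axis) and in replicate 2 (y axis). Both are the authors' score on log scales. The points are the 21 combined summits of pair-rule genes with such a candidate in each replicate. The dashed line marks equal values. The site upstream of slp2 stands at the upper right with 312.5 and 283.9, and 17 of 21 points lie under the line.

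Sequence letters of known factors were sought within 50 bp of each summit on both strands. The Huckebein core CACGCCC was in 0 of the 26 windows, against 0.762% of all 7220. The Zelda site CAGGTAG, bound by the pioneer factor that opens early zygotic genes, was also in 0 of 26, against 0.582% of all. The DRE element TATCGATA, known from promoters of housekeeping genes, was in 0 of 26, against 0.789% of all. The GAGA element GAGAG, bound by Trl and common at developmental promoters, was in 6 of 26 (23.1%), against 12.6% of all. These 6 were the promoter summits of hry and opa, the weak entry behind slp1 and 3 sites at ftz-f1. At hry the letters lie past the start, outside the stretch printed above, which ends on the base before the start. With 100 bp on either side GAGAG was in 14 of 26, against 25.6% of all.

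The same letters were sought at the promoters of pair-rule genes. Of their 15 annotated starts, 4 had the Zelda site between 250 bp before and 50 bp after the start, against 1.68% of all 23998 starts. GAGAG was at 11 of the 15, against 32.5%. The Huckebein core was at 0 of the 15, against 1.91%, and the DRE element at 0, against 6.80%. The 2 starts of hry lie 0.196 kb apart, so their windows overlap, and both count for GAGAG. The 4 starts with the Zelda site belonged to ftz, hry, odd and slp1. The site at hry lay inside the interval of the hry promoter peak, chr3L:8675547-8675930. None of the 4 sites had a thresholded combined summit within 50 bp. They are printed on the strand of each gene with the site in capitals, as CAGGTAG or in its reverse complement at slp1, because the early promoter letters stand at starts with and without a peak. They span chr3R:6864098-6864144 (ftz), chr3L:8675618-8675664 (hry), chr2L:3606872-3606918 (odd, minus strand) and chr2L:3825515-3825561 (slp1).
ftz: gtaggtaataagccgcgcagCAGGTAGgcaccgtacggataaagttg
hry: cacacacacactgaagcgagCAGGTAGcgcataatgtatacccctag
odd: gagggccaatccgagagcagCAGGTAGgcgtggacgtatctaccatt
slp1: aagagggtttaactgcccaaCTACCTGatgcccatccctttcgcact
The site began 206 bp before the ftz start, 121 bp before the hry start, 142 bp before the odd start and 140 bp before the slp1 start. Of these 4 genes hry had a promoter summit in the combined list, odd and slp1 had start candidates that missed the combined threshold, and ftz had none.

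The regulators and targets of the pair-rule genes were counted with the same window. The lists were drawn up with earlier results of these data known. Of 10 maternal and gap regulators 5 had a combined summit, against 57.1% of protein-coding genes. They included cad (best signal value 267.5), which encodes the posterior homeodomain factor Caudal, Stat92E (234.8), the transcription factor of the JAK/STAT pathway, and D (198.7), which encodes the Sox factor Dichaete. The 5 without one were the gap genes hb, Kr, kni, gt and tll, named after their values were seen. They had none in any of the 4 thresholded lists, where 44.3% to 57.1% of protein-coding genes had one. As they were picked by that value, no conclusion about gap genes is drawn. Of 10 segment polarity and Hox targets 9 had one, led by nkd (391.3), an antagonist of Wingless signalling, Scr (200.3), a Hox gene, and ptc (157.3), the Hedgehog receptor. The conservative list held 7 of the 10, against 56.5% of protein-coding genes. Replicate 1's list held 6, against 48.7%, and replicate 2's list held 6, against 44.3%.

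All 6 cofactors had a summit in the combined list (against 57.1% of protein-coding genes), in replicate 1's (48.7%) and in replicate 2's (44.3%). The highest were at Hr3 (851.5), a nuclear receptor of the molting cascade that acts upstream of ftz-f1 there, gro (636.7), the corepressor Groucho, and Bro (398.3), the partner subunit of Runt. The peak at gro also falls in the window of its neighbour E(spl)m8-HLH. Of 4 segmental surface targets 3 had a combined summit, against 57.1% of protein-coding genes, and Ten-m (301.6), a teneurin of the cell surface, was the 1 with a summit in both replicates as well. Of 12 paralogues of pair-rule genes 7 had a combined summit, a share near the 57.1% of protein-coding genes. Their best signal values were led by bowl (548.8), a relative of odd, and Poxm (223.8), a relative of prd, after E(spl)m8-HLH. The gene hkb itself had 3 combined summits with a best signal value of 97.6, and 1 in each replicate, with 48.2 in replicate 1 and 58.1 in replicate 2.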

How the data were processed

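Peak lists of hkb-eGFP ChIP-seq on dm6 were used, from 2 biological replicates of 1 group, per the labels. Sonication gave fragments of 200 to 800 bp, per the labels. Details of alignment and peak calling are not given in the sources used. The labels point to a possible control, not analysed here. The signal value is a score that the authors deposited, with no unit given, and the integer score of each deposited thresholded peak was at least 830. The deposited lists hold −log10 values of a q-value, −log10 IDR in the ranked lists, and the summit offset. Thresholded peaks have a −log10 IDR of at least 2. The depth of the libraries is unknown.

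The scripts counted summits in each gene and 5 kb either side (Ensembl release 115), ranked them within their list, and searched motif letters in the RefSeq Release 6 genome. Soft-masked bases are those in lower case in that genome file. Shares have exact binomial intervals, and no comparison between conditions was possible. Python 3.11.15, numpy 2.4.6, pandas 2.3.3, scipy 1.17.1 and matplotlib 3.10.9 were used, and the counting was tested on simulated data. Tables of promoter and protein sequences were not used here. The members and the lists of regulators, targets, cofactors and paralogues were chosen with earlier results of these data known. All 10 members are named, with genes whose start is nearest to a member's summit, genes in a member's window, at most 3 genes of each network list (ranked by signal value, and holding a summit in the combined and both replicates' lists), and hkb. Outside this rule, 5 gap genes without a summit were named after their values were seen. Alternatives were other windows, lists, replicates alone, a stricter signal value, overlap in place of summits, and other motif windows. Those added after seeing the data were a minimum signal value of 20, the 9 genes without ftz-f1, and GGTCACACT. The stretches without a candidate were measured after the plots of the loci had been seen.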

Additional observations from a re-analysis of the deposited data

How the results depend on the processing

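The count of 7 pair-rule genes with a summit stayed within 1.5 times with 2 or 10 kb either side, the conservative list, replicate 1 alone, placement by overlap, a minimum signal value of 20, and passing candidates absent from the list, of which the pair-rule genes had none. It was 3 with the gene body and 1 kb upstream, and 3 with peaks at or above the list's median signal value. Over the replicates taken alone it ranged from 4 (without replicate 1) to 6 (without replicate 2). The 26 summits became 9 at or above the median signal value, and ranged from 14 (without replicate 1) to 20 (without replicate 2). At the 9 genes other than ftz-f1 the 10 summits became 2 with the gene body and 1 kb upstream, 5 with 2 kb, 17 with 10 kb, 5 without replicate 1 and 7 without replicate 2. The cause of these moves was not tested. The percentile of ftz among protein-coding genes was 0% with the gene body and 1 kb upstream, where it has no candidate, against 50.6% with 5 kb, and that of slp2 was 52.1%, against 96.1%. No paired analysis was possible because there is 1 group. Unknown depth limits the reading of missing peaks: a gene without a summit had none that passed at this depth.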
